A study of Homo sapiens with 6 samples.

Results

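The comparison of Uc283+a variant 1 with mock set 2 arrays of HCT-116 cells given variant 1 against 2 arrays of the same line given an empty vector, 4 of the 6 arrays of the series. HCT-116 is a human colorectal carcinoma line. Uc283+a is a long noncoding RNA read from an ultraconserved region of the genome, and variant 1 is its form with a run of 8 T. Both groups were transiently transfected, and total RNA of the cultures was labelled with biotinylated random octamers. The members were found by label alone: the 4 arrays whose transfection label reads variant 1 or mock. The other 2 arrays, of variant 2 with a run of 9 T, entered the model only to add to its estimate of the spread. The probes compared were 1773, those named for human miRNAs and for transcripts of ultraconserved regions.

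A miRNA is cut from a primary transcript into a hairpin precursor by the Microprocessor (Drosha with DGCR8), and from the precursor into a short duplex by Dicer. One strand of the duplex enters an Argonaute protein and finds its targets mainly through the seed, bases 2 to 8 from its 5′ end. The other strand, marked with a star in older catalogues, is usually degraded. Several names of older miRNA catalogues lie within transfer RNAs, Y RNAs or vault RNAs and do not pass through the Microprocessor.

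No probe was called different between variant 1 and mock after adjustment. The limma model called 0 of 1773 probes at an adjusted p of 0.05 (two-sided, Benjamini-Hochberg), which is 0% of those tested. Unadjusted p-values under 0.05 were found for 34 probes higher in variant 1 (1.92%) and 39 lower (2.2%). The arrays of variant 1 and mock did not overlap for 599 probes, or 33.8%, with 293 higher and 306 lower. Every difference below is therefore a description of these arrays, and none is past the threshold. The p-values measure the spread between these arrays, which may be technical, since no label says that the replicates came from separate cultures. In RNA of whole cultures, fewer cells with an RNA and less of it per cell cannot be told apart.

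Values are log2 signals as normalized by the authors, so a difference of 1 is 2-fold. A probe was taken as above background on an array where it exceeded the level that 95% of its 38 random-sequence probes stayed under, which was 6.76 to 6.94. On all 4 arrays 436 probes did so, 257 mature-named, 33 for star strands, 141 precursor-named and 5 for ultraconserved regions. Precursor-named probes are those whose name ends in P or AP, a suffix the sources used here do not explain. Over those 436, differences between the variant 1 arrays had an SD of 0.471 and those between the mock arrays an SD of 0.750. Mock replicate 1 differed from the variant 1 arrays with SDs of 0.715 and 0.764, and mock replicate 2 with SDs of 0.492 and 0.537, so mock replicate 1 stood apart and results are also given without it. No tested probe names Uc283, so how much of it the cells held was not analysed. The 4 small nucleolar RNA probes, outside the tests, were lower in variant 1 by 0.20 to 0.82. As for the cell type, the epithelial hsa-miR-200c had 10.29 and 10.31 in variant 1 against 10.10 and 10.31 in mock. Of the 10 probes of its miR-200 family, 3 were above background. The neural hsa-miR-124 was brighter, with 11.15 and 10.82 in variant 1 against 10.50 and 10.73 in mock. The level of hsa-miR-200c alone therefore does not mark the cells as epithelial. The intestinal miR-192, miR-194 and miR-215 had 0 of 7 probes above background, and the haematopoietic markers 1 of 12.

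The mature sequences of the miRNAs with the smallest p-values among probes above background, and of their relatives, follow with the seed in capitals, from RefSeq on GRCh38.p14. They show which named probes read nearly the same RNA and which do not.
hsa-miR-663b: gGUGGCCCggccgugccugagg
hsa-miR-663a: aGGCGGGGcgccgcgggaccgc
hsa-miR-1260b: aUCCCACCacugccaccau
hsa-miR-1260a: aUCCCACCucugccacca
hsa-miR-4301: uCCCACUAcuucacuuguga
hsa-miR-21-5p: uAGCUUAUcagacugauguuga
hsa-miR-590-5p: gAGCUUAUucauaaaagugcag
hsa-miR-339-3p: uGAGCGCCucgacgacagagccg
hsa-miR-320c: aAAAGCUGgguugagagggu
hsa-miR-320b: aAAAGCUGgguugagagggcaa
hsa-miR-320d: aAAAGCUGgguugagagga
hsa-miR-1248: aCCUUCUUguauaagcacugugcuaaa
hsa-miR-556-3p: aUAUUACCauuagcucaucuuu
The array's hsa-miR-1260 was matched to miR-1260a, hsa-miR-663 to miR-663a and hsa-miR-21 to miR-21-5p, which are the current names. From the 5′ end, miR-1260a and miR-1260b hold the same base at 17 of 18 positions and miR-320b and miR-320c at 19 of 20, whereas miR-663a and miR-663b do so at 8 of 22 and share no run longer than 4 bases. Seed sharing joins miR-1260a with miR-1260b, miR-21-5p with miR-590-5p, and the miR-320 sequences shown.

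The smallest p-value of the comparison belonged to hsa-miR-663b, a GC-rich miRNA. It stood at 7.54 and 7.68 in variant 1, against 9.94 and 9.75 in mock. The groups did not overlap and the arrays within each lay close together. The difference was -2.23 (SE 0.371, 95% interval -3.07 to -1.39), or 4.70-fold lower in variant 1. Its adjusted p in limma was 0.398, and it ran from 0.0651 to 0.926 over the settings tried. Leaving out either mock array or either variant 1 array gave -2.14 to -2.33. The miRNA lies at chr2:132256970-132256991 on the minus strand of GRCh38.p14, within the span of ANKRD30BL. Its hairpin is shown next, with the mature miRNA in capitals, since the array also has a precursor-named probe for it.
MIR663B: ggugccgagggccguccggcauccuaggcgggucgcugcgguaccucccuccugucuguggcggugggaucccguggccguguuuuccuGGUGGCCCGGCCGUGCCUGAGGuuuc
The precursor-named hsa-miR-663b-P had 7.65 and 7.60 in variant 1, against 8.78 and 7.21 in mock, so it overlapped and differed by -0.37 (SE 0.727). The mature-named probe of its namesake, hsa-miR-663, had 5.21 and 6.25 in variant 1, below background, against 7.19 and 7.15 in mock, just above it. That gives at least 1.25-fold lower signal in variant 1. The namesakes share little sequence, as printed above, and each was lower in variant 1.

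**Figure D1:**
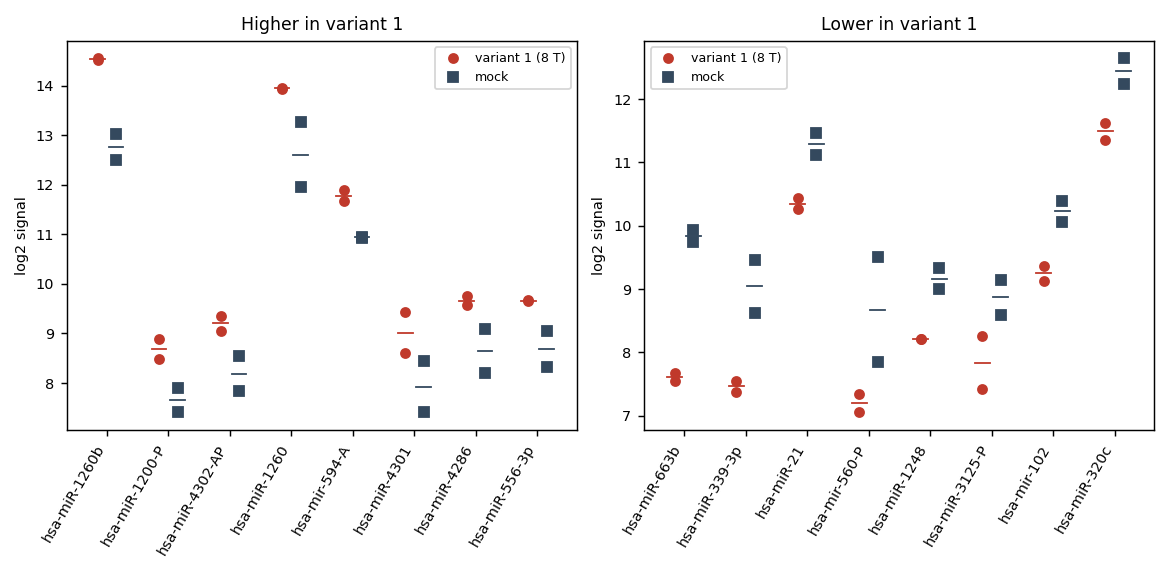
Log2 signal (y axis) on each array for the 8 higher and the 8 lower probes with the smallest p-values among those above background, with variant 1 as circles left of mock as squares and short lines at the group means (n = 2 each). The groups do not overlap for any probe shown, which is how they were chosen, and hsa-miR-663b (-2.23) and hsa-miR-1260b (1.76) have the largest differences of those shown.

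On the higher side the smallest p-value above background was that of hsa-miR-1260b, one of the catalogue names that match a transfer RNA. Its signal was 14.55 and 14.51 in variant 1, against 12.51 and 13.03 in mock, with no overlap. The difference was 1.76 (SE 0.436, 95% interval 0.77 to 2.75), or 3.39-fold higher in variant 1. Limma gave it an adjusted p of 0.960, and over the settings it ran from 0.0868, with a trended prior, to 1.00. The RefSeq entry lies at chr11:96341447-96341465 on the plus strand, within the span of MAML2, and its hairpin carries the mature bases near its 5′ end.
MIR1260B: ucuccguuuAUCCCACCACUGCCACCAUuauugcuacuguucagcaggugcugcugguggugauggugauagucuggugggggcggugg
The nearly identical hsa-miR-1260 had 13.93 and 13.96 in variant 1, against 11.95 and 13.26 in mock, a difference of 1.34 (SE 0.550). The third probe of this kind, hsa-miR-1280, also named for a transfer RNA fragment, had 14.99 and 14.86 in variant 1, against 12.98 and 14.55 in mock, a difference of 1.16 (SE 0.620). All 3 were bright and did not overlap, and in each the lowest array was mock replicate 1. Without that array the differences were 0.68 for hsa-miR-1260 and 0.38 for hsa-miR-1280, against 2.00 and 1.94 without mock replicate 2. For hsa-miR-1260b every difference with 1 array left out was over 2-fold, up to 2.02. The precursor-named probes gave other values: hsa-miR-1260b-P differed by 0.48, hsa-miR-1280-P by 0.08 and hsa-miR-1260-P, below background in variant 1, by -1.19.

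The whole set of names that overlap transfer, Y or vault RNAs was mostly higher in variant 1. Of its 20 probes 17 were higher and 3 lower, with a median of 0.51, beside a median of 0.000128 over all probes tested. None passed, and 14 of the 20 (70.0%) did not overlap, 13 higher and 1 lower, beside 33.8% of all probes. All 13 of its probes above background were higher, with a median of 0.62, beside 222 of 436 higher and a median of 0.01 among all probes above background. The list was written with the values of hsa-miR-1260b and hsa-miR-1979 already known, so its direction is no independent evidence.

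Members outside the miR-1260 group, named after their values were seen, had these values. The transfer RNA fragment hsa-miR-1274b had 12.43 and 12.44 in variant 1, against 11.60 and 11.84 in mock, a difference of 0.71 (SE 0.404). Its relative hsa-miR-1274a had 12.91 and 12.84 in variant 1, against 12.02 and 12.41 in mock. Another transfer RNA name, hsa-miR-720, had 11.73 and 11.04 in variant 1, against 10.84 and 10.88 in mock. These 3 did not overlap, whereas hsa-miR-1308 did, with 12.71 and 12.55 in variant 1 against 11.50 and 12.64 in mock. The Y RNA name hsa-miR-1975 had 12.91 and 12.90 in variant 1, against 12.54 and 12.03 in mock. The other, hsa-miR-1979, had 10.61 and 10.84 in variant 1, against 10.48 and 9.51 in mock. Both were without overlap, with differences of 0.62 and 0.72. For the vault RNA, hsa-miR-886-3p had 8.01 and 7.96 in variant 1, between its mock values of 8.41 and 6.85. Summed on the linear scale, the 20 probes gave 118348 and 114996 in variant 1, against 48942 and 76431 in mock. Without mock replicate 1, 18 of 20 were higher with a median of 0.51, and without mock replicate 2, 15 of 20 with a median of 0.35.

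**Figure D2:**
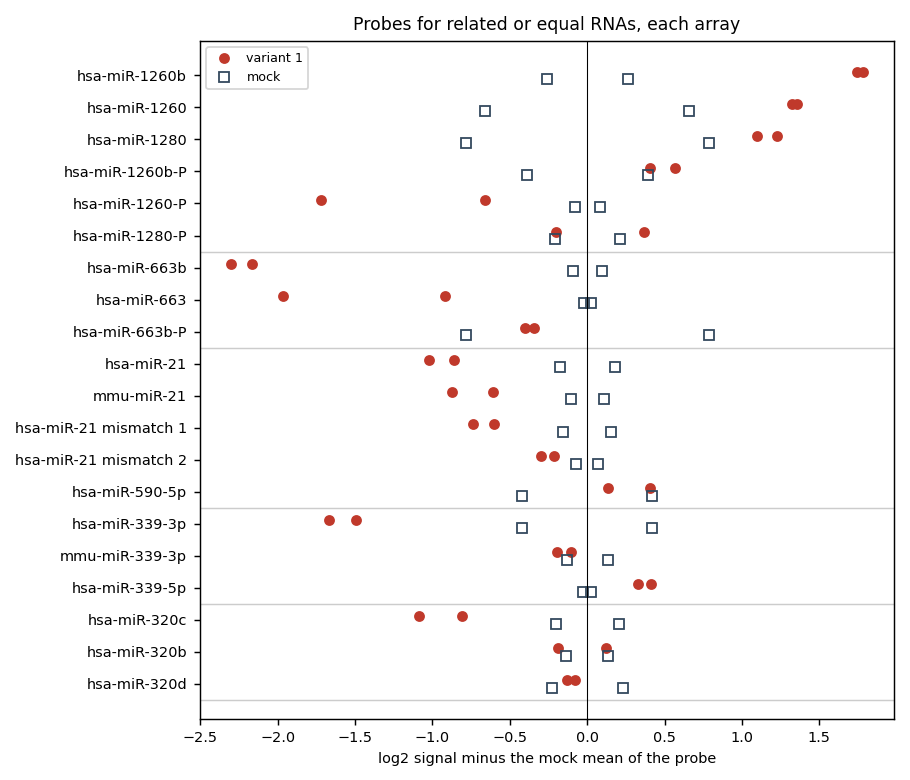
Log2 signal of each array minus the mock mean of that probe (x axis), with variant 1 as filled circles above mock as open squares. Probes are set together by name, seed, sequence or transfer RNA overlap, and not all of those set together read similar RNAs. The variant 1 arrays of hsa-miR-1260b, hsa-miR-1260 and hsa-miR-1280 lie right of all their mock arrays, of their precursor-named probes hsa-miR-1260b-P does so by less and hsa-miR-1260-P lies left, and hsa-miR-320c stands left of its near-identical relatives.

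Some lower probes had a second probe on the array for the same or nearly the same RNA. The oncogenic hsa-miR-21, abundant in colorectal tumours and encoded within the span of VMP1, had 10.27 and 10.43 in variant 1, against 11.47 and 11.12 in mock. Its difference was -0.94 (SE 0.375, 95% interval -1.79 to -0.09) with an adjusted p of 0.960 in limma. The mouse-named probe mmu-miR-21 had 10.14 and 9.88 in variant 1, against 10.86 and 10.64 in mock, a difference of -0.74, so a separate probe placed the groups the same way round, also without overlap. All 6 mismatch probes named for hsa-miR-21, which carry altered bases, were lower, by 0.03 to 1.07, but only 3 of the 6 were above background and the lowest was not. Mismatch probes as a class also leaned lower, 60 of 93 with a median of -0.17. The star strand hsa-miR-21*, below background, differed by 0.15, and hsa-miR-590-5p, which shares the seed, by 0.27. The small nucleolar RNA probes, lower by a mean of 0.51 on the same arrays, were placed the same way. Centred on them, hsa-miR-21 differed by -0.44, and the cause was not tested.

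For hsa-miR-339-3p the probes disagreed. The human-named probe had 7.55 and 7.37 in variant 1, against 9.46 and 8.62 in mock, a difference of -1.58 (SE 0.465). The mouse-named mmu-miR-339-3p had 7.18 and 7.09 in variant 1, against 7.15 and 7.42 in mock, a difference of -0.15. The opposite strand hsa-miR-339-5p, below background, differed by 0.37.

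The miR-320 names disagreed as well. The hairpin of their relative miR-320a is known to reach Dicer without Drosha. The probe hsa-miR-320c had 11.63 and 11.36 in variant 1, against 12.24 and 12.64 in mock, a difference of -0.95 (SE 0.428). By contrast, hsa-miR-320b had 11.71 and 12.02 in variant 1, against 11.76 and 12.04 in mock, a difference of -0.03. In the same way hsa-miR-320d had 11.80 and 11.74 in variant 1, against 11.64 and 12.10 in mock, a difference of -0.11. The 3 RNAs share their first 18 bases, and only 1 of the 3 probes separated the groups.

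The other lower probes above background included mature-named and precursor-named ones. A small nucleolar RNA of the H/ACA class gives rise to hsa-miR-1248, which had 8.22 and 8.21 in variant 1, against 9.33 and 9.00 in mock, a difference of -0.95 (SE 0.399). Its precursor-named hsa-miR-1248-P had 10.11 and 9.91 in variant 1, against 9.63 and 9.95 in mock, a difference of 0.22. The older name hsa-mir-102, with no current entry here, had 9.37 and 9.12 in variant 1, against 10.39 and 10.06 in mock. For hsa-mir-560-P the values were 7.05 and 7.35 in variant 1, against 9.51 and 7.84 in mock. For hsa-miR-3125-P they were 8.26 and 7.42 in variant 1, against 8.59 and 9.15 in mock. The difference of hsa-mir-560-P rested largely on 1 array: -1.47 with both mock arrays and -0.64 without mock replicate 1. For hsa-miR-3125-P it was -1.03, and the mature-named hsa-miR-3125 differed by -0.25.

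Among the remaining higher probes above background, hsa-mir-594-A had 11.66 and 11.90 in variant 1, against 10.95 and 10.93 in mock. The groups lay apart by a difference of 0.84 (SE 0.365), which stayed between 0.72 and 0.95 with any 1 array left out. For hsa-miR-556-3p the values were 9.67 and 9.66 in variant 1, against 8.32 and 9.06 in mock. The probe hsa-miR-4301 had 9.43 and 8.61 in variant 1, against 7.41 and 8.44 in mock, and hsa-miR-4286 had 9.75 and 9.56 in variant 1, against 9.08 and 8.20 in mock. These 3 differed by 0.97 to 1.09, and each depended on which mock array was used. Leaving out 1 mock array gave 0.58 to 1.61 for hsa-miR-4301, 0.57 to 1.46 for hsa-miR-4286 and 0.60 to 1.35 for hsa-miR-556-3p. The opposite strand hsa-miR-556-5p differed by -0.37, hsa-miR-4301-P by -0.67 and hsa-miR-4286-P by -0.40, all below background on at least 1 array.

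In 2 cases the precursor-named probe was the higher one. The probe hsa-miR-1200-P had 8.88 and 8.48 in variant 1, against 7.41 and 7.90 in mock, a difference of 1.02 (SE 0.393), while the mature-named hsa-miR-1200 differed by -0.22. Likewise hsa-miR-4302-AP had 9.04 and 9.36 in variant 1, against 7.83 and 8.55 in mock, a difference of 1.01 (SE 0.407), while hsa-miR-4302 differed by -0.80.

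**Figure D3:**
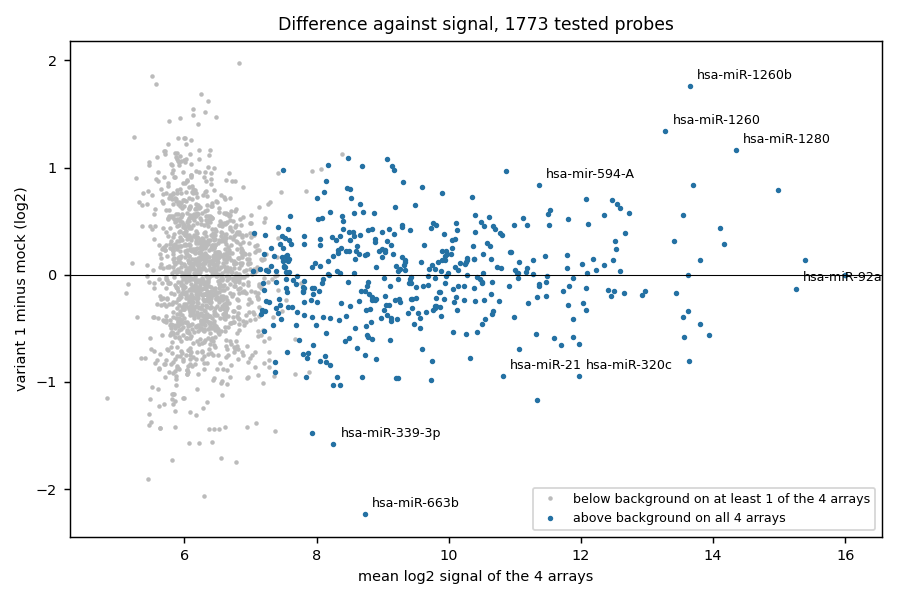
Difference between variant 1 and mock in log2 signal (y axis) against the mean signal of the 4 arrays (x axis) for the 1773 tested probes, with the 436 probes above background on all 4 arrays in blue. The spread of differences is widest at low signal, and above background only 14 probes differ by more than 2-fold.

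Size of the difference depended on signal. Of the 346 probes with a mean signal of up to 6, 14.5% differed by more than 2-fold, and of the 105 probes from 10 to 12, 0.952% did so. The share did not fall steadily: it was 4.28% from 6 to 7, 2.47% from 7 to 8, 5% from 8 to 10 and 6.52% above 12. Among the 436 probes above background the SD of the differences was 0.459, and 90% of them lay between -0.78 and 0.71. Unadjusted p-values under 0.05 were found for 5 of them higher (1.15%) and 7 lower (1.61%). Over 2-fold there were 8 higher and 6 lower probes, and 13 of these 14 did not overlap, beside 33% of the 436. Picking probes by a large difference makes overlap unlikely, so these shares cannot be compared. In the brightest bin, above 12, 3 of 46 probes were more than 2-fold higher and 0 lower, and there the 2 variant 1 arrays differed with an SD of 0.303, against 0.857 between the 2 mock arrays.

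The brightest mature-named probes that were not at the scanner ceiling are a check on the top of the range. The oncogenic hsa-miR-92a of the miR-17/92 cluster had 15.22 and 15.16 in variant 1, against 15.42 and 15.22 in mock. For hsa-miR-212 the signals were 14.32 and 14.28 in variant 1, against 14.12 and 13.91 in mock. For hsa-miR-92b, which shares the miR-92a seed, they were 14.37 and 14.29 in variant 1, against 13.56 and 14.22 in mock. Across all 10 the differences ran from -0.46, for hsa-miR-23b, to 1.76, for hsa-miR-1260b. The others were hsa-miR-1280, hsa-miR-553 (0.79), hsa-miR-923 (0.14), hsa-miR-4313 (0.84) and hsa-miR-1259 (-0.34). For hsa-miR-553 and hsa-miR-4313 the groups overlapped, and without mock replicate 1 the differences were -0.04 and 0.16.

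Probes below background on at least 1 array gave the other small p-values. Of the 1773 tested, 12 were above background on both variant 1 arrays and neither mock array, and 38 on both mock arrays and neither variant 1 array. With the highest random-sequence probe as background level these counts were 11 and 0, so their balance depended on that level. Since the dim group of such a probe has only a bound, folds are lower bounds. The widest gap belonged to hsa-miR-122*, the star strand of the liver miRNA, with 8.02 and 7.61 in variant 1, against 6.80 and 4.88 in mock, at least 1.97-fold higher. The transposon-derived hsa-miR-548a-5p had 7.13 and 7.22 in variant 1, against 5.66 and 5.46 in mock, at least 1.26-fold higher. The bounds are far under the measured differences because the dim signals lie under the floor. Likewise hsa-miR-569 was at least 1.30-fold and hsa-miR-125a-3p at least 1.25-fold higher. On the other side hsa-miR-1265-P was at least 1.47-fold lower in variant 1, hsa-miR-3175 at least 1.31-fold and hsa-mir-633-P at least 1.76-fold. Limma gave each of these 7 an adjusted p of 0.960. Further probes with small p-values below background were hsa-miR-889-P and hsa-mir-630-P, higher, and hsa-miR-92a-1* and hsa-miR-1827, lower, all without a measured fold.

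The difference between mature-named and precursor-named log2 signal is unchanged by a constant added to all values of an array. Other scalings were not tried for it. It bears on the processing that the series title names only if precursor-named probes read precursors, which the sources used here do not state. Of 576 mature-named probes with a precursor-named partner, limma called 0 (0%), and before adjustment 17 were higher (2.95%) and 18 lower (3.12%) with p under 0.05, and the arrays did not overlap for 33.7%. The smallest adjusted p was 0.755. The median difference between variant 1 and mock was 0.03. In 59 pairs both probes lay above background, and there the mean of mature minus precursor-named signal was 0.38 and 0.41 in variant 1, against 0.17 and 0.41 in mock. Variant 1 thus lay at the level of mock replicate 2.

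Single pairs differed in both directions. For hsa-miR-1260b the mature-named probe exceeded its precursor-named one by 4.27 and 4.07 in variant 1, against 3.02 and 2.76 in mock, a difference of 1.28 (SE 0.580). For hsa-miR-663b the excess was -0.11 and 0.08 in variant 1, against 1.15 and 2.54 in mock, a difference of -1.86 (SE 0.793). For hsa-miR-1248 it was -1.89 and -1.70 in variant 1, against -0.30 and -0.95 in mock. In these 3 pairs both probes lay above background and the groups did not overlap. The pairs with the smallest p-values each had a dim probe: hsa-miR-638 (-2.18), hsa-mir-513c (-2.74) and hsa-miR-606 (-2.14) on the lower side, and hsa-miR-1260 (2.53), hsa-mir-1912 (1.77) and hsa-miR-520f (1.85) on the higher. Taking hsa-miR-638, the excess was 2.12 and 2.12 in variant 1, against 4.43 and 4.16 in mock. All of them had a limma adjusted p of 0.755.

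**Figure D4:**
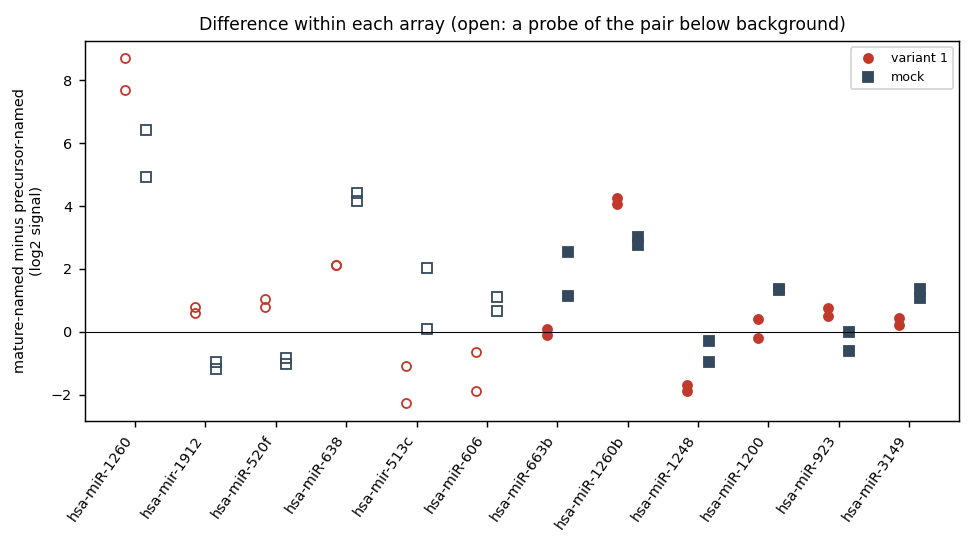
Mature-named minus precursor-named log2 signal within each array (y axis) for the pairs named in the text and the other pairs with the smallest p-values, with variant 1 as circles left of mock as squares and open symbols where a probe of the pair was below background. The pairs hsa-miR-1260b and hsa-miR-663b separate in opposite directions.

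Strand balance showed no call either. Of 149 star probes with a probe for the main strand, limma called 0 (0%), and before adjustment 3 were higher (2.01%) and 0 lower (0%) with p under 0.05, and 30.2% did not overlap. The smallest adjusted p was 0.960. The 13 pairs with both strands above background had a mean star minus main signal of -1.89 and -1.96 in variant 1, against -1.96 and -1.93 in mock. The smallest p-values were for pairs with a dim strand: hsa-miR-122* (2.07), hsa-miR-200a* (1.52) and hsa-miR-141* (1.42) were higher relative to the main strand, and hsa-miR-526b* (-1.25), hsa-miR-32* (-1.36) and hsa-miR-183* (-1.18) lower. The main strands of hsa-miR-200a* and hsa-miR-141*, both of the miR-200 family, share a seed.

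Families that act on growth gave medians near or under 0. In the seed family of hsa-miR-195, which represses cyclins, 4 of 15 probes were higher and 11 lower, with a median of -0.23. For hsa-miR-195, whose primary transcript Uc283+a is known to bind, the signals were 8.42 and 8.58 in variant 1, against 9.35 and 9.23 in mock. They did not overlap, as was so for 33.8% of all probes tested. Its difference was -0.79 (SE 0.385), with an adjusted p of 0.960 in limma, and ran from -0.87 to -0.28 over the settings. Its neighbour on the same primary transcript, hsa-miR-497, had 9.14 and 9.71 in variant 1, against 9.61 and 9.28 in mock. The miR-17/92 cluster and its paralogs, which promote proliferation, had 10 higher and 17 lower of 27, a median of -0.18, with the brightest member, hsa-miR-92a, at -0.13. The let-7 family, which represses RAS and MYC, had 10 higher and 12 lower of 22 and a median of -0.02. Its brightest probe, has-let-7b, had 12.47 and 12.62 in variant 1, against 12.42 and 12.41 in mock, and hsa-let-7f-2* was at -0.88. Without mock replicate 1 the let-7 median was -0.23, and without mock replicate 2 it was 0.10.

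In the miR-29 and miR-30 families most probes were lower. All 7 probes of the miR-29 family, repressors of collagens and DNA methyltransferases, were lower, with a median of -0.47, and 3 of the 7 (42.9%) did not overlap, near the 33.8% of all probes tested. Mock replicate 1 carried much of this: without it the median was -0.16. The brightest, hsa-miR-29a, had 10.19 and 10.05 in variant 1, against 10.55 and 10.15 in mock, and hsa-miR-29b-1* had 7.55 and 7.16 in variant 1, against 8.78 and 7.85 in mock. In the miR-30 family 2 were higher and 9 lower of 11, a median of -0.23, with hsa-miR-30c at -0.60 and hsa-miR-30d at -0.23. All 6 of its probes above background were lower on the authors' scale, and on that scale they were so with any 1 array left out. The small nucleolar RNA probes had a mean of -0.51 between the same groups. Centred on them, hsa-miR-29a was at 0.27 and hsa-miR-30d at 0.28, while hsa-miR-29b-1* was at -0.45 and hsa-miR-30c at -0.097. A shared direction in either family therefore held only on the authors' scale, and its cause was not tested.

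Lists of the epithelium and of colorectal cancer showed no common direction over all their probes. The miR-200 family, which keeps the epithelial state, had 5 higher and 5 lower with a median of -0.06. Its smallest p-value was for hsa-miR-200a, at 6.63 and 6.16 in variant 1, below background, against 8.26 and 7.30 in mock. The intestinal miRNAs had a median of 0.03, which became -0.39 with mock replicate 1 left out and 0.24 with mock replicate 2 left out. There hsa-miR-192, the brightest, differed by -0.26 and hsa-miR-194 by -0.66. The p53-induced miRNAs had 11 higher and 10 lower, a median of 0.03, with hsa-miR-605 at -0.70 and the bright hsa-miR-1246 at -0.15. Colorectal oncomiRs had 10 higher and 16 lower of 26, a median of -0.13, and all 6 above background were lower, hsa-miR-21 and hsa-miR-92a among them, with a median of -0.43. Without mock replicate 1, 5 of the 6 were lower with a median of -0.20. Centred on the small nucleolar RNA probes, hsa-miR-92a was at 0.38 and hsa-miR-21 at -0.44, so the common direction of the 6 depended on the scale. Colorectal tumour-suppressor miRNAs had 13 higher and 11 lower, a median of 0.10, with hsa-miR-133a-1-P at 1.07 and hsa-miR-375-P at 0.25.

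By route of biogenesis, miRNAs whose Microprocessor cropping is known to be regulated had 9 higher and 17 lower of 26, a median of -0.14, with hsa-let-7a the brightest at 0.04. Those made without Drosha or DGCR8 had 16 higher and 17 lower of 33, a median of -0.03, with hsa-miR-320c both the brightest and the one with the smallest p. With mock replicate 1 left out their median was -0.16, and with mock replicate 2 left out 0.17. No member of any list passed.

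**Figure D5:**
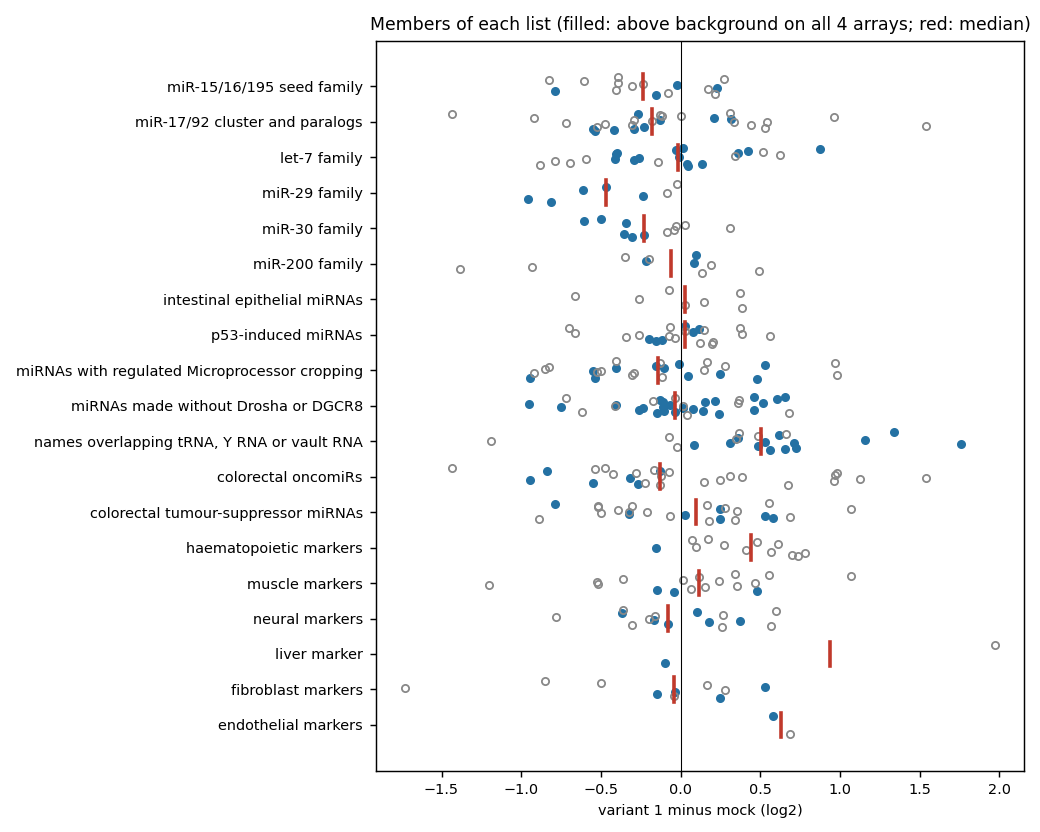
Difference between variant 1 and mock in log2 signal (x axis) for every probe of each list (rows), filled where the probe was above background on all 4 arrays, with the list median as a red bar. Of the names overlapping transfer, Y or vault RNAs 17 of 20 lie right of 0, the 7 probes of the miR-29 family lie left of it, and most other lists lie on both sides.

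Markers of other cell types differed in how many probes lay above background, beside 436 of 1773 of all probes tested. The counts were 1 of 12 for haematopoietic, 3 of 17 for muscle and 6 of 15 for neural markers. They were 4 of 10 for fibroblast, 1 of 2 for liver and 1 of 2 for endothelial markers. Of the 12 haematopoietic probes 11 were higher and 1 lower with a median of 0.44, but only hsa-miR-150 was above background, at 8.05 and 7.87 in variant 1 against 7.84 and 8.37 in mock. The smallest p-value was for hsa-miR-144 (0.78), below background. Their summed linear signal was 1157 and 1239 in variant 1, against 897 and 1117 in mock. Without mock replicate 1, 9 of the 12 were higher with a median of 0.28. The endothelial hsa-miR-126 and hsa-miR-126* differed by 0.68 and 0.58, with hsa-miR-126* at 9.35 and 8.96 in variant 1, against 8.54 and 8.62 in mock. Muscle markers had a median of 0.11, with hsa-mir-208b at -1.20 and hsa-miR-206 at 0.48. Neural markers had a median of -0.08, with hsa-miR-138 at -0.78 and hsa-miR-138-1* at 0.10. Fibroblast markers had a median of -0.04, with hsa-miR-199b-5p at -1.73, below background on all 4 arrays, and hsa-miR-214 at -0.04. The liver miRNA hsa-miR-122 itself had 9.46 and 9.83 in variant 1, against 9.61 and 9.88 in mock.

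Transcripts of ultraconserved regions, the class of RNA that was transfected, were read by 32 probes, and 17 were higher and 15 lower with a median of 0.05. Groups did not overlap for 8 of the 32 (25%), under the 33.8% of all probes tested. The brightest, uc.106+A, had 8.42 and 9.07 in variant 1, against 8.43 and 9.20 in mock. The next, uc.106+ and uc.110+A, differed by 0.28 and -0.06. All 3 overlapped between the groups. The smallest p-values belonged to dim probes: uc.112+ (1.86) and uc.1+A (0.79) were higher, and uc.101+A (-0.79) and uc.113+A (-0.42) lower. For uc.112+ the arrays ran 7.64 and 5.23 in variant 1, against 5.76 and 3.40 in mock, so each group spread over more than 2 log2 units.

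Variant 2, set against the same mock arrays, gave its own differences for the leading probes. They were -1.45 for hsa-miR-663b, 1.53 for hsa-miR-1260b, 0.39 for hsa-miR-1260, -1.06 for hsa-miR-21, -0.77 for hsa-miR-320c and 0.93 for hsa-mir-594-A. Since both comparisons share the mock arrays, a like sign in both is not independent. For hsa-miR-339-3p the variant 2 difference was -0.13, for hsa-mir-560-P -0.09 and for hsa-miR-556-3p -0.03, and limma found no probe here whose variant 2 and variant 1 signals differed, with an adjusted p of at least 0.924.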

How the data were processed

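Log2 signals of 2997 probes on 6 one-colour arrays were used as deposited by the authors. The base of the logarithm was read from the values, which end just under 16. Limma is the one tool in the submitters' processing notes, which state no version. Background correction and normalization are unstated in the labels used here, and so is the genome build. The medians of the 4 variant 1 and mock arrays lay between 6.57 and 6.58.

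Of the human probes without a mismatch tag, the 4 for small nucleolar RNAs were kept out and 1741 for miRNAs were tested with 32 for ultraconserved regions. Groups were variant 1, mock and variant 2, with 2 arrays each, numbered in order of deposit. A limma model (version 3.58.1, R 4.3.3) with 1 mean per group was fitted to all 6 arrays (3 residual and 5.71 prior degrees of freedom), and p-values were adjusted by Benjamini-Hochberg. The same model was run on differences within an array: mature-named minus the mean of the precursor-named probes of that miRNA, and star minus the probe of the same name without the star. The fits were tested on simulated data with the fitted spread. For single probes, 3.4% of differences of 1 log2 unit were called, 62.3% of those of 2 and 92.1% of those of 3. The absence of calls therefore does not mean that the signals were equal. The number of arrays limits the precision.

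Named probes followed a rule: 8 higher and 8 lower above background with the smallest p and no overlap, 4 and 4 others, 4 and 4 above background in 1 group only, the brightest and the smallest p of each list, 3 bright and 4 small-p ultraconserved probes, 3 pairs in each direction, partners of the first 16 (same name or seed), and the 10 brightest. The 4 arrays were taken by label alone, whereas the lists and the rule were chosen with earlier results of these data known. Alternatives were other arrays in the fit, priors, weights, scalings, filters and background levels, and leaving out each array.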

Additional observations from a re-analysis of the deposited data

Results flagged for a closer look

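For 4 probes named above, both variant 1 arrays lay on one side of the mock arrays and both variant 2 arrays on the other. This is how they were picked out, and a difference between the variants was not tested by this rule. The variant 1 difference was 1.62 for hsa-miR-548a-5p, -1.73 for hsa-miR-199b-5p, -0.67 for hsa-miR-4301-P and 0.13 for has-let-7b. The variant 2 differences from the same mock arrays were -0.25, 0.36, 0.34 and -0.48 for these probes in that order. Only has-let-7b was above background on all 4 arrays of variant 1 and mock.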

How the results depend on the processing

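No probe and no pair was called under any setting tried. The smallest adjusted p over the settings for single probes ran from 0.0651, with only the probes above background tested, to 0.926, with only the 4 arrays fitted. Both hsa-miR-663b and hsa-miR-1260b kept their direction in all of them. Centring on the 4 small nucleolar RNA probes moved the median of all tested probes to 0.51 and gave 166 higher and 3 lower probes at an unadjusted p under 0.05, against 34 and 39, so directions hold only relative to the authors' scale. With it the class medians were 0.49 for mature-named, 0.46 for star, 0.54 for precursor-named and 0.56 for ultraconserved-region probes. Centred on the median of the probes above background, they were 0.031 for mature-named, -0.0045 for star and 0.076 for precursor-named probes. With the highest random-sequence probe as background level, 11 probes were above it in variant 1 only and 0 in mock only, against 12 and 38. The changes of sign that follow are for tested probes given a value above, and other members of the lists turned as well. In the miR-29 family, leaving out 1 array gave -0.39 to 0.21 for hsa-miR-29a* and -0.76 to 0.72 for hsa-miR-29c*. The small nucleolar RNA centring also turned the sign of uc.113+A (0.082), hsa-miR-23b (0.045), hsa-miR-1259 (0.17), hsa-miR-4286-P (0.11), hsa-miR-192 (0.25), hsa-miR-3125 (0.25), hsa-miR-29a (0.27), hsa-miR-30d (0.28), hsa-miR-556-5p (0.13), hsa-miR-663b-P (0.13), hsa-miR-1200 (0.28), hsa-miR-150 (0.36), hsa-miR-1246 (0.35), hsa-miR-92a (0.38), hsa-miR-320d (0.40), hsa-miR-122 (0.41), uc.106+A (0.44), uc.110+A (0.44), hsa-miR-320b (0.47), hsa-miR-214 (0.47) and hsa-miR-497 (0.49). The median of probes above background turned hsa-miR-320b (0.0099), hsa-miR-214 (0.0084) and hsa-miR-497 (0.023), and quantile normalization hsa-miR-320b (0.0013). Leaving out 1 array turned the sign of these probes, given with their range: hsa-miR-553 (-0.039 to 1.62), hsa-miR-1308 (-0.012 to 1.13), hsa-miR-4286-P (-0.94 to 0.14), hsa-miR-192 (-0.55 to 0.026), hsa-miR-590-5p (-0.15 to 0.69), hsa-miR-886-3p (-0.42 to 1.14), hsa-miR-663b-P (-1.16 to 0.41), uc.106+ (-0.39 to 0.95), hsa-miR-1200 (-0.46 to 0.011), hsa-miR-150 (-0.42 to 0.11), hsa-miR-1246 (-0.52 to 0.21), hsa-miR-21* (-0.17 to 0.47), hsa-miR-138-1* (-0.078 to 0.28), hsa-miR-320d (-0.34 to 0.13), hsa-miR-200c (-0.0045 to 0.20), hsa-miR-122 (-0.28 to 0.091), hsa-miR-923 (-0.48 to 0.75), hsa-miR-1280-P (-0.20 to 0.37), uc.106+A (-0.45 to 0.31), uc.110+A (-0.76 to 0.63), hsa-let-7a (-0.086 to 0.17), hsa-miR-320b (-0.19 to 0.12), hsa-miR-214 (-0.67 to 0.60) and hsa-miR-497 (-0.31 to 0.27). The cause was not tested. No paired analysis was possible because the labels give the arrays no replicate numbers. Most tested probes were below background on at least 1 array.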
